A study of Rattus norvegicus with 6 samples.

Results

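The genes described are 9 interferon-stimulated genes of the rat kidney cortex: Mx1, Mx2, Ifi27, Irf7, Isg15, Oas1a, Ifit3, Usp18 and Rsad2. They were chosen by name as a pathway group, for the way their levels vary from array to array, in particular on the array of benzyl acetate replicate 2, and for the comparison of benzyl acetate with vehicle. They are 9 of 15645 RefSeq gene symbols matched on the array and 9 of 31179 genes tested, and all 9 passed the filter on dim probes. Renal cortex was taken from male Sprague-Dawley rats of the Crl:CD(SD) stock, which were 5 weeks old at purchase and ate a basal diet. The benzyl acetate group had 3 rats dosed at 1000 mg/kg/day for 4 weeks, and the vehicle group had 3 rats given corn oil for 4 weeks. The labels name no allele, transgene or other treatment in either group. Total RNA of each rat was labelled with Cy3 and hybridised to its own 1-colour Agilent array, so each replicate is an animal and the number of arrays limits the precision.

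Interferons are secreted proteins that cells release when they sense viral or displaced nucleic acid. Type I interferon binds a receptor made of Ifnar1 and Ifnar2, the kinases Jak1 and Tyk2 then act on the receptor and on Stat2, and Stat2 with Irf9 is part of a complex that binds interferon-stimulated response elements in the promoters of antiviral genes. Irf7 is both a product of this response and a driver of interferon production, and Usp18 restrains the response in addition to its other roles.

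All values below are log2 of the processed signal minus that array's 75th percentile, so 0 is the 75th percentile and a difference of 1 is a doubling; levels of different probes are not compared. The 75th percentile signal itself ran from 883 to 990 on the benzyl acetate arrays and from 1003 to 1057 on the vehicle arrays. Between 69.0% and 69.8% of probes were well above background on the benzyl acetate arrays and between 70.5% and 71.95% on the vehicle arrays. All 11 proximal tubule markers tested, among them Miox and Slc13a3, were well above background on all 6 arrays, which bears on the tissue label. Before the results, 2 features of the arrays need stating. Benzyl acetate replicate 3 stood apart on the first principal component, which held 26.2% of the variance: it scored 50.1, whereas the other 5 arrays scored from -24.4 to -0.227. Vehicle replicate 1 was the only array on slide 1 and the other 5 were on slide 2. Its scan date also differed from that of the other 5, so for that array slide, scan date and animal cannot be told apart.

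No member passed the test between the groups. The benzyl acetate mean was below the vehicle mean for 7 of the 9 genes and above it for Ifi27 and Rsad2, beside 46% of all genes with a difference below 0. In limma, 0 members passed an adjusted p of 0.05, beside 0% of all genes (0 of 31179), and 0 members had an unadjusted p under 0.05, beside 6.74% of all genes (3.82% higher and 2.92% lower). The members' adjusted p ran from 0.833 to 0.999. Groups were separate for 0 of the 9, beside 12.8% of all genes. The median range of the 9 genes over 6 arrays was 1.08 on the log2 scale, against 0.39 over all genes. The genes were chosen in part for varying between arrays, so this range describes the choice. Each rat has its own array, so spread among rats and spread among arrays cannot be told apart in it.

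**Figure D1:**
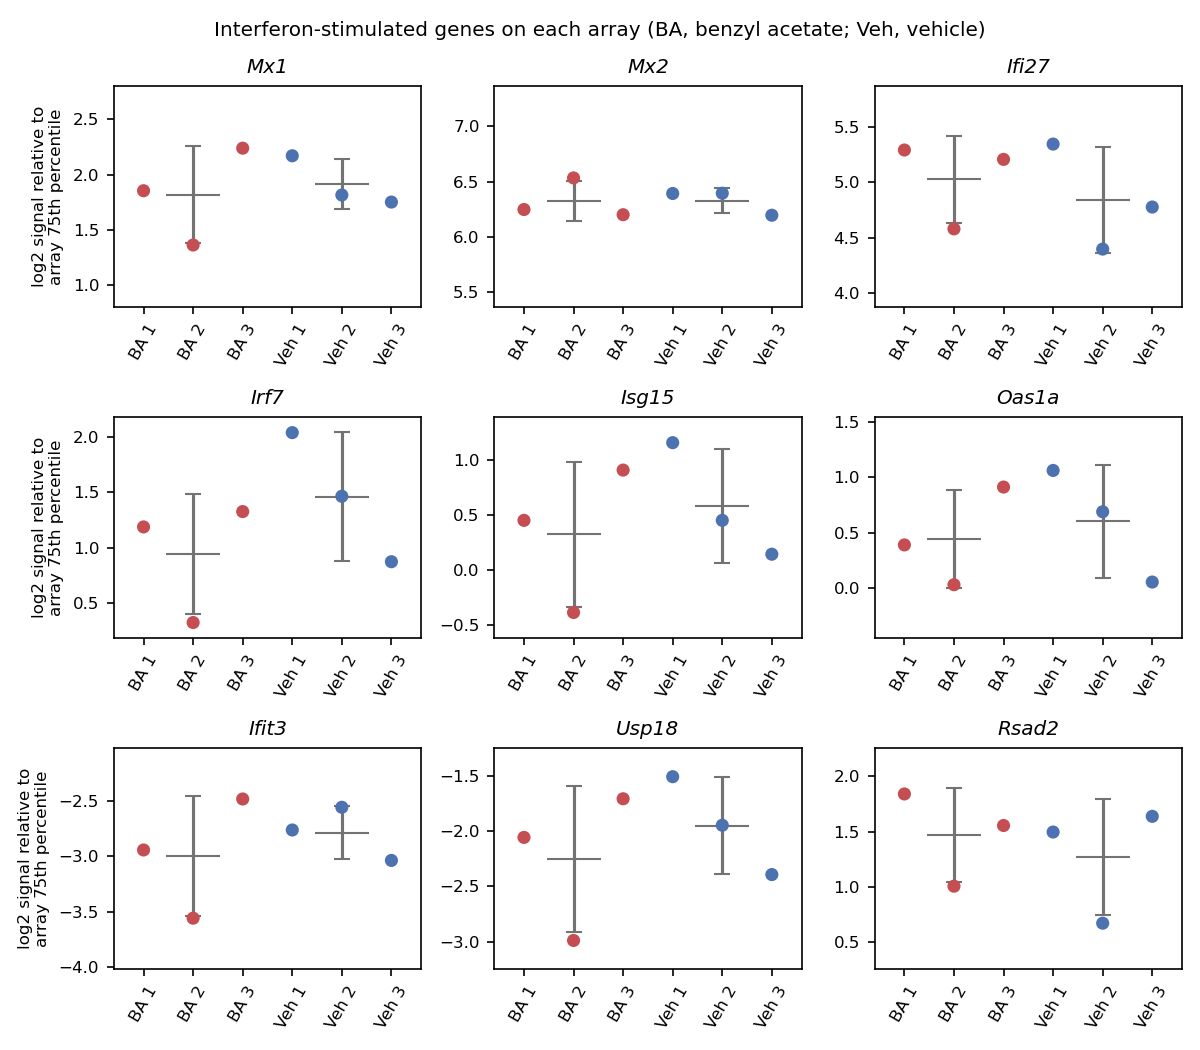
Level in log2 units, with 0 at the 75th percentile of the array (vertical axes, each spanning the same width), for the 9 genes on each array, with points for single rats (red, benzyl acetate, BA; blue, vehicle, Veh) and grey bars for the group mean and SD (n = 3 each). The groups overlap for all 9 genes, and benzyl acetate replicate 2 is the lowest of the 6 arrays for 6 of them.

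Irf7 is the transcription factor of the group, the interferon regulatory factor that amplifies type I interferon production. Its level was 1.19, 0.32 and 1.33 in benzyl acetate replicates 1, 2 and 3, against 2.04, 1.46 and 0.87 in vehicle replicates 1, 2 and 3. Benzyl acetate replicate 2 was lowest, vehicle replicate 1 was highest, and the span between them was 3.29-fold, the widest of the 9 genes. The mean was 0.94 ± 0.54 with benzyl acetate and 1.46 ± 0.58 with vehicle (SD, n = 3 each), a difference of -0.51 with a 95% interval of -1.45 to 0.42 and an adjusted p of 0.833 in limma.

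Isg15 encodes the ubiquitin-like protein that is joined to other proteins after interferon exposure. In the order of replicates 1, 2 and 3, which is kept from here on, its level was 0.45, -0.38 and 0.91 with benzyl acetate, against 1.15, 0.45 and 0.14 with vehicle. Again benzyl acetate replicate 2 was lowest and vehicle replicate 1 highest, 2.90-fold apart. The means were 0.32 ± 0.65 with benzyl acetate and 0.58 ± 0.52 with vehicle, and the difference of -0.26 had a 95% interval of -1.24 to 0.72 (adjusted p = 0.929, limma).

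Usp18, the protease that removes Isg15 from its targets and dampens signalling at the type I receptor, had the same order at both ends. It stood at -2.06, -2.99 and -1.71 with benzyl acetate, against -1.51, -1.95 and -2.39 with vehicle, a span of 2.79-fold. Its difference was -0.30 (95% interval -1.24 to 0.63, adjusted p = 0.905 in limma). For Irf7, Isg15 and Usp18 the interval reached past a fall of 1 on the log2 scale, so with 3 rats a group a difference of that size was within the error.

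Oas1a makes the oligoadenylate that switches on the RNA-degrading enzyme RNase L. Its level was 0.39, 0.03 and 0.91 with benzyl acetate, against 1.06, 0.69 and 0.05 with vehicle. The lowest array was again benzyl acetate replicate 2, with vehicle replicate 3 nearly level with it, and the highest was vehicle replicate 1. The difference was -0.16 (95% interval -0.96 to 0.64, adjusted p = 0.951 in limma). Oas1a belongs to a family of close copies in the rat, and its probes may share signal with Oas1i and Oas1k.

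Ifit3 is an antiviral tetratricopeptide-repeat protein. Its level was -2.94, -3.56 and -2.48 with benzyl acetate, against -2.76, -2.56 and -3.04 with vehicle. Benzyl acetate replicate 2 was lowest and benzyl acetate replicate 3 highest, 2.11-fold apart, so both ends lay within the same group. The difference was -0.21 (95% interval -0.91 to 0.49, adjusted p = 0.914 in limma).

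Mx1, a dynamin-like GTPase that in rodents acts in the nucleus against influenza-like viruses, had the same pair of extremes as Ifit3. It stood at 1.86, 1.36 and 2.24 with benzyl acetate, against 2.17, 1.82 and 1.75 with vehicle. The means were 1.82 ± 0.44 with benzyl acetate and 1.91 ± 0.23 with vehicle, and the difference was -0.09 (95% interval -0.68 to 0.50, adjusted p = 0.963 in limma).

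The remaining 3 members did not have their lowest value on benzyl acetate replicate 2. Rsad2, the radical SAM enzyme known as viperin, stood at 1.84, 1.01 and 1.56 with benzyl acetate, against 1.50, 0.67 and 1.64 with vehicle. Ifi27, a small interferon-induced protein of the mitochondrial membrane, stood at 5.29, 4.58 and 5.21 with benzyl acetate, against 5.35, 4.40 and 4.78 with vehicle. For both genes vehicle replicate 2 was lowest and benzyl acetate replicate 2 came next, below the other benzyl acetate arrays by 0.69 for Rsad2 and 0.67 for Ifi27. The group differences were 0.20 for Rsad2 (95% interval -0.59 to 0.99, adjusted p = 0.933 in limma) and 0.19 for Ifi27 (95% interval -0.54 to 0.92, adjusted p = 0.932 in limma).

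Mx2, a GTPase related to Mx1 that in rat acts in the cytoplasm, was the exception among the 9. On the probe used for the gene it stood at 6.25, 6.53 and 6.20 with benzyl acetate, against 6.39, 6.40 and 6.20 with vehicle. Benzyl acetate replicate 2 was the highest of the 6 arrays here, and the whole range was 1.26-fold. Its difference was -0.00062 (95% interval -0.29 to 0.28, adjusted p = 0.999 in limma).

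The second Mx2 probe gave another order. Its processed signal was 108, 57 and 110 with benzyl acetate, against 139, 83 and 80 with vehicle, so benzyl acetate replicate 2 was lowest and vehicle replicate 1 highest, as for Irf7. The probe used for the gene read 75139, 91775 and 65003 with benzyl acetate, against 84311, 88345 and 77521 with vehicle. Both probes carry the same RefSeq accession in the array's annotation. The group difference was -0.03 on the second probe, close to 0 as on the probe used, and which of the probes follows the Mx2 transcript was not tested.

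**Figure D2:**
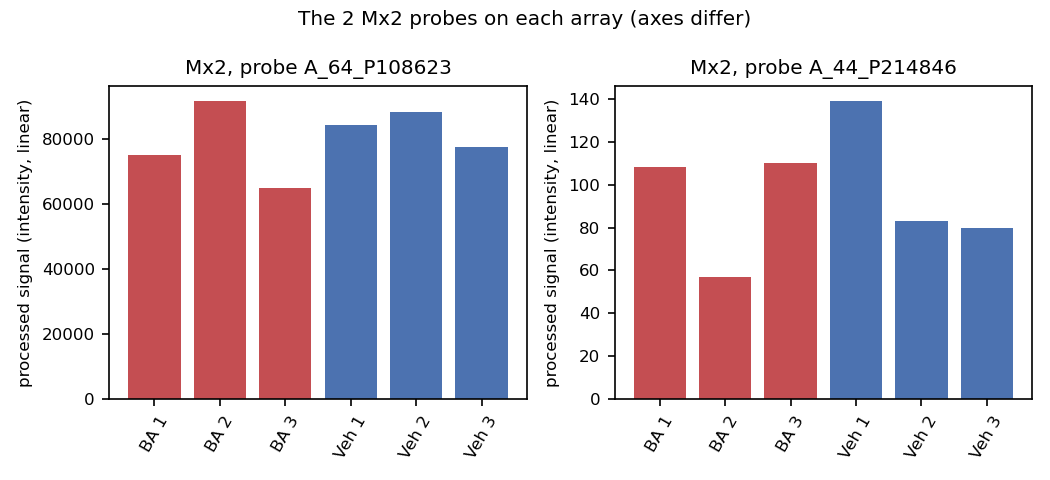
Processed signal (linear intensity, axes starting at 0 and differing between panels) of the 2 Mx2 probes on each array; bars are single rats, red for benzyl acetate (BA) and blue for vehicle (Veh). Benzyl acetate replicate 2 is the highest bar at 91775 on the left and the lowest at 57 on the right.

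For the other members with several probes the probes mostly kept the same low array. In all the 9 genes had 18 probes, of which 16 were well above background on all 6 arrays. Of those 16, 11 were lowest on benzyl acetate replicate 2 and 10 were highest on vehicle replicate 1. No share over all probes is given. Probes of the same gene were read on the same rats, so these counts do not add to the counts by gene below. The second Ifi27 probe had signals of 7521, 4058 and 6223 with benzyl acetate, against 8040, 3772 and 5336 with vehicle, the same order at both ends as the probe used. The second Rsad2 probe differed by -0.0095 between the groups, against 0.20 for the probe used, so the sign for Rsad2 turns on the probe. Irf7 and Isg15 had 1 probe each.

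Taken by array, 6 of the 9 genes had their lowest value on benzyl acetate replicate 2, beside 17.9% of all genes. Within the benzyl acetate group, replicate 2 was below both other rats for 8 of the 9, all but Mx2, beside 36.2% of all genes. The gap to the mean of the other 2 rats was -1.11 for Usp18, -1.06 for Isg15, -0.93 for Irf7, -0.85 for Ifit3, -0.68 for Mx1 and -0.62 for Oas1a. Its median over the 9 genes was -0.69, against -0.02 over all genes. At the other end, 5 of the 9 were highest on vehicle replicate 1, beside 14.9% of all genes, and 6 were above both other vehicle rats there, beside 31% of all genes. Irf7, Isg15, Oas1a and Usp18 had both extremes at once, 4 of 9 genes beside 3.36% of all genes. As the 9 were chosen in part for their levels on each array, benzyl acetate replicate 2 in particular, these counts describe the choice.

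As a mean over the 9 genes of each gene's deviation from its own average, the arrays stood at 0.06, -0.53 and 0.27 with benzyl acetate, against 0.41, -0.03 and -0.19 with vehicle. Low and high arrays thus occurred in both groups, and the vehicle arrays alone ran from well above the average to below it. Each gene was also set against the mean of the other 8 over the 6 arrays, as a description of genes measured on the same arrays. Pearson's r was 0.99 for Isg15, 0.97 for Usp18, 0.96 for Mx1, 0.89 for Irf7, 0.87 for Oas1a, 0.76 for Ifit3 and 0.67 for Ifi27. It was 0.27 for Rsad2 and -0.48 for Mx2 on the probe used.

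**Figure D3:**
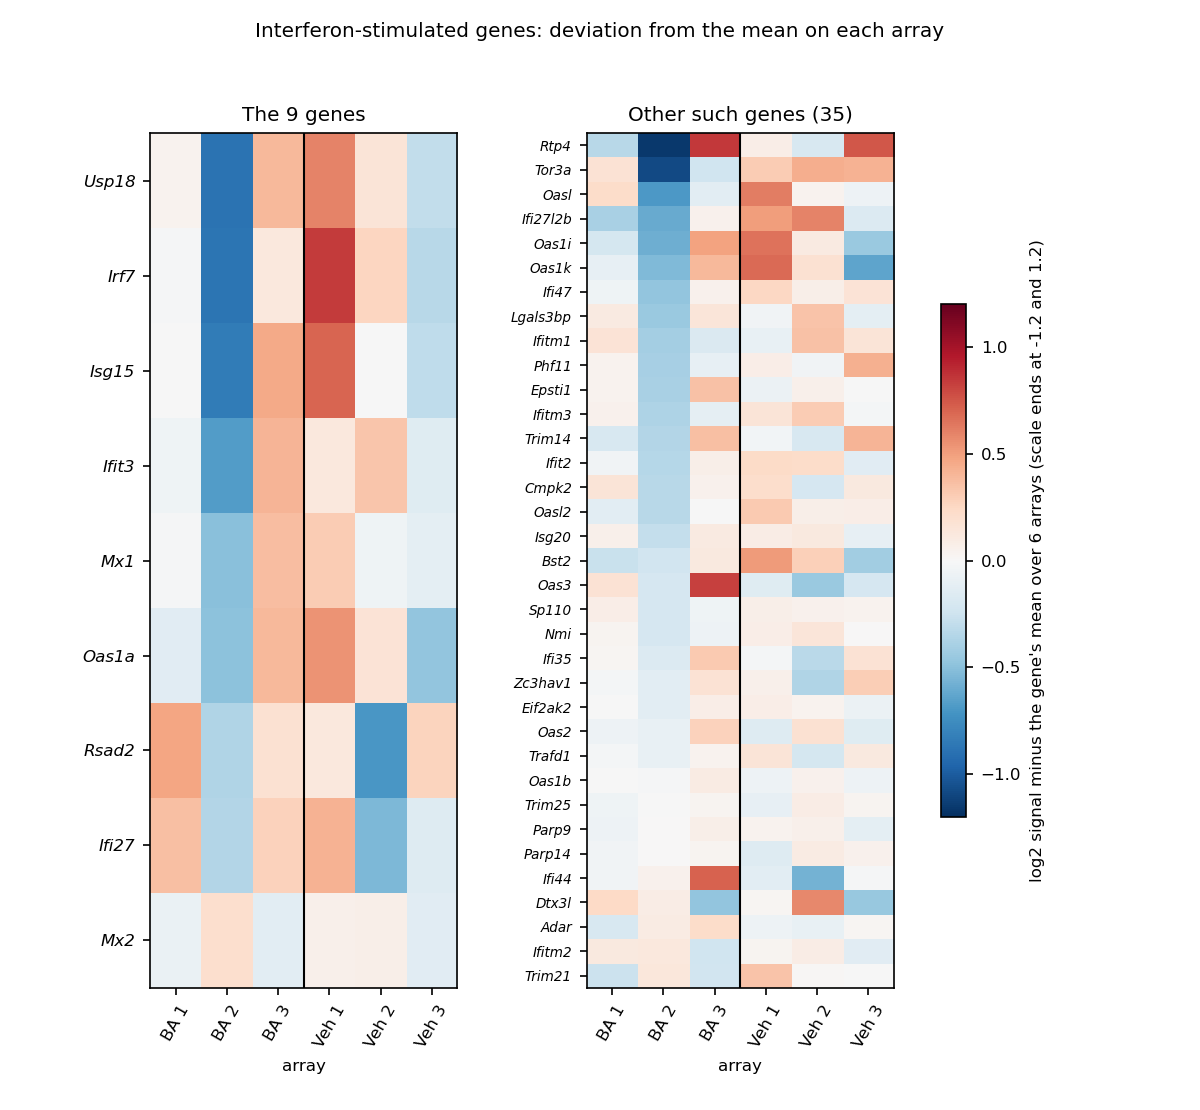
Deviation of each gene (one per line) from its own mean over the 6 arrays (columns; BA, benzyl acetate; Veh, vehicle), in log2 units from blue (below the mean) to red (above), for the 9 genes on the left and 35 other interferon-stimulated genes on the right, each sorted by benzyl acetate replicate 2. The benzyl acetate replicate 2 column is blue for all of the 9 but Mx2, and vehicle replicate 1 is red for all 9.

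The groups were also compared without those 2 arrays, which were picked with the members' values known: leaving out a low benzyl acetate array or a high vehicle array raises the difference by construction, so the values describe how much 1 rat weighs in a group of 3. Without benzyl acetate replicate 2, 2 of the 9 genes were below vehicle and the median difference was 0.07, against -0.16 with all arrays. Without vehicle replicate 1, 3 of the 9 were below and the median was 0.03. Without both, 1 of the 9, Mx2, was below vehicle and the median was 0.28, while 47.1% of all genes were below 0. Under those 3 settings the members' adjusted p in limma stayed between 0.837 and 0.992. Without both arrays, 1 of the 9 had an unadjusted p under 0.05 in limma, beside 1761 of 31773 genes. Without benzyl acetate replicate 3, the array that stood apart on the first principal component, the median was -0.39, and without vehicle replicate 3 it was -0.34. The median over all genes was 0.01 with all arrays.

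**Figure D4:**
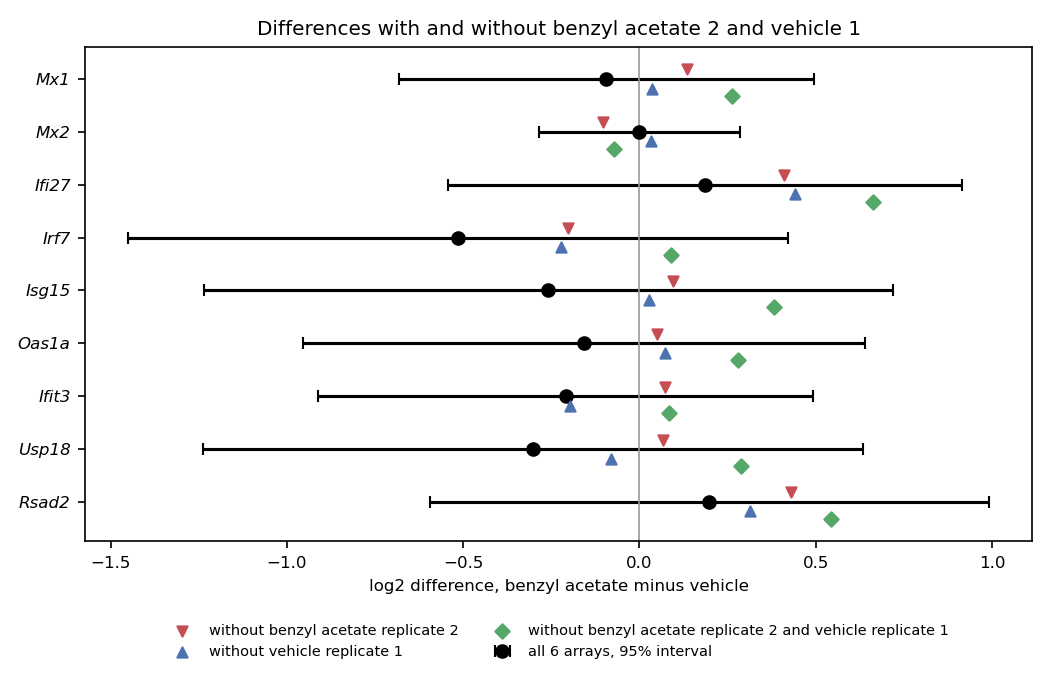
Log2 difference between the groups, benzyl acetate minus vehicle (horizontal axis), for each of the 9 genes; black points with 95% intervals use all 6 arrays, and coloured markers leave out benzyl acetate replicate 2, vehicle replicate 1 or both. All 9 intervals cross 0, and the green diamonds without both arrays lie above 0 for 8 of the 9 genes.

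Promoter sequences are shown because the complex described above binds response elements in the promoters of antiviral genes. RefSeq promoter windows of the GRCr8 assembly were matched for 6 of the 9 genes, Mx1, Ifi27, Irf7, Oas1a, Ifit3 and Rsad2. The 250 bases before each start were searched on both strands for GAAA followed by any 2 bases and a second GAAA, which reads TTTC, 2 bases and TTTC on the opposite strand. The letters occurred in 5 of the 6, all but Mx1, and in 3.41% of all 33469 promoters in the table. For the 5 genes the 200 bases before the start follow, read 5′ to 3′ along the gene, with matches on either strand in capitals.
Ifi27 (chr6:128355112-128355311, plus strand): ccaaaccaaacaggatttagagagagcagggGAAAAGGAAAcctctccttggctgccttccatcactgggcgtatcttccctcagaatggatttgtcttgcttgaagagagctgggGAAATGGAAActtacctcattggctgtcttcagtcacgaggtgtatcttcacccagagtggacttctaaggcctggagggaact
Irf7 (chr1:205800024-205800223, minus strand): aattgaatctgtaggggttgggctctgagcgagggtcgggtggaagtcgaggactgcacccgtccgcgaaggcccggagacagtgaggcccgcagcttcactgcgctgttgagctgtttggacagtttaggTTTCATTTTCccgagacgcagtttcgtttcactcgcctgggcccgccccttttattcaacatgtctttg
Oas1a (chr12:41330266-41330465, plus strand): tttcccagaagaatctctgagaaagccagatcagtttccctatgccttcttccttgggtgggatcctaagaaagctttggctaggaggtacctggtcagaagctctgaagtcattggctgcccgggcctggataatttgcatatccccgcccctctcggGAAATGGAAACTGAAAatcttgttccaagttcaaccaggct
Ifit3 (chr1:241527126-241527325, plus strand): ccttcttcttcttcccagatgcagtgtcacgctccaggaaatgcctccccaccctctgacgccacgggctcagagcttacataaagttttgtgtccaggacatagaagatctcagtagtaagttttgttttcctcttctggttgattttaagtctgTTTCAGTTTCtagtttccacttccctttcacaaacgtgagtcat
Rsad2 (chr6:48788121-48788320, minus strand): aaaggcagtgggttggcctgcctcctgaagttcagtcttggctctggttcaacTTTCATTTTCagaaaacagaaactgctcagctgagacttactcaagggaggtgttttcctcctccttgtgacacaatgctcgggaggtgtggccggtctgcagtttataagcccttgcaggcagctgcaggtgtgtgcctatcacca
Counted from the start of transcription, the first base of the match stood at -169 and -84 in Ifi27, -69 in Irf7, -44 in Ifit3 and -147 in Rsad2. Oas1a held 2 overlapping matches, at -41 and -35. A match describes these letters only; binding to them was not measured. Ifi27 and Rsad2, whose lowest array was not benzyl acetate replicate 2, hold the letters too, and Mx1, whose lowest array it was, does not hold them in this window.

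The pathway above these genes was measured in part. Of 13 ligand and receptor genes listed, 5 were tested, 3 below and 2 above vehicle, with 0 past the threshold in limma, adjusted or unadjusted. The probes for Ifnb1, the main interferon beta gene, Ifng, the gene of interferon gamma, Ifnk and Ifnlr1 were well above background on 0 of 6 arrays, with no signal above 10.9, so no difference can be given for these genes. The probe for Ifna2 was well above background on 2 of 6. On the brighter Ifna4 probe the spot of benzyl acetate replicate 1 was marked as an outlier by the scanner software and left out, so its fit used 5 arrays. Among receptor chains, Ifnar1 differed by -0.13, Ifngr1 by -0.09, Ifngr2 by 0.10 and Il10rb by 0.11.

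In the JAK-STAT list, which holds the signal transducers and their brakes, 12 of 12 genes were tested, 10 below and 2 above vehicle. None passed the adjusted test in limma and 1 of the 12, Irf9, had an unadjusted p under 0.05, beside 6.74% of all genes. Irf9, the DNA-binding partner of Stat2, stood at -1.56, -1.78 and -1.62 with benzyl acetate, against -1.17, -1.38 and -1.49 with vehicle. Its groups did not overlap, the only such case among the 12, beside 12.8% of all genes. Its extremes were again benzyl acetate replicate 2 and vehicle replicate 1. The difference of -0.31 (95% interval -0.58 to -0.04) had an adjusted p of 0.709 in limma. Stat2 had a difference of -0.03, and it was lowest on benzyl acetate replicate 2 and highest on benzyl acetate replicate 3.

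Of the other interferon regulatory factors 6 of 7 were tested, 3 below and 3 above, none past the threshold. Irf1, which responds to interferon gamma, differed by -0.21. Irf3, which is activated when nucleic acid is sensed, differed by 0.14 with groups that did not overlap (adjusted p = 0.764 in limma). Groups were separate for 1 of the 6, beside 12.8% of all genes. Of 15 nucleic acid sensors and adaptors 10 were tested, 5 below and 5 above, with 0 past the adjusted threshold. The kinase Tbk1, which phosphorylates Irf3, differed by -0.23 (unadjusted p = 0.022, adjusted p = 0.700, limma). Of the 10, only Tbk1 had an unadjusted p under 0.05 in limma, beside 6.74% of all genes. Groups were separate for 2 of the 10, beside 12.8% of all genes. Ifih1, the RNA sensor known as MDA5, differed by -0.31, and its lowest array was benzyl acetate replicate 2 at -4.06.

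A wider list of 46 other interferon-stimulated genes gave 35 tested genes. Of these 24 were below and 11 above vehicle, with a median of -0.11, and 0 passed the adjusted test. Oasl2, an oligoadenylate synthetase-like gene, and Tor3a had unadjusted p-values under 0.05 in limma, 2 of the 35 genes beside 6.74% of all genes. Oasl2 stood at -0.03, -0.24 and 0.09 with benzyl acetate, against 0.40, 0.16 and 0.17 with vehicle, and its difference of -0.30 had an adjusted p of 0.726 in limma. Tor3a, an ATPase of the torsin family, stood at -3.10, -4.36 and -3.52 with benzyl acetate, against -2.97, -2.84 and -2.86 with vehicle, and its difference of -0.77 had an adjusted p of 0.736 in limma. In both genes every benzyl acetate rat was below every vehicle rat, and benzyl acetate replicate 2 was lowest. Groups were separate for 3 of the 35 genes, beside 12.8% of all genes. Ifi27l2b, a relative of Ifi27, differed by -0.63 (adjusted p = 0.736, limma) with overlapping groups, and Oas1b and Ifitm2 differed by 0.05 and 0.003.

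The low array of the 9 genes was also the low array of many of these. Benzyl acetate replicate 2 held the lowest value for 19 of the 35 (54.3%), beside the 17.9% of all genes. Vehicle replicate 1 held the highest for 10. The mean deviation over the 35 genes was -0.02, -0.28 and 0.12 with benzyl acetate, against 0.13, 0.06 and -0.0017 with vehicle. Without benzyl acetate replicate 2, 18 of the 35 were below vehicle and the median was -0.0022. Among the conjugation enzymes of Isg15, Ube2l6 differed by -0.12 and was lowest on benzyl acetate replicate 2, whereas Trim25, which the list of 46 also holds, differed by -0.02.

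Genes of interferon gamma action and antigen processing shared the low array but not the high one. Of 17 tested, 12 were below and 5 above vehicle with a median of -0.16, and 11 (64.7%) were lowest on benzyl acetate replicate 2. The median was -0.04 without benzyl acetate replicate 2 and -0.28 without vehicle replicate 1. None was highest on vehicle replicate 1. Psmb8, a subunit of the immunoproteasome, stood at 0.49, 0.24 and 0.56 with benzyl acetate, against 0.71, 0.81 and 1.06 with vehicle. Its difference was -0.43 (unadjusted p = 0.017, adjusted p = 0.696, limma), and the GTPase gene Irgm differed by -0.52 (adjusted p = 0.726, limma). Only these 2 of the 17 had an unadjusted p under 0.05 in limma, beside 6.74% of all genes. Psmb9, another immunoproteasome subunit, differed by -0.33, B2m, the light chain of class I molecules, by -0.03 and the GTPase gene Igtp by 0.06.

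Markers of macrophages, T and NK cells and B cells were low on benzyl acetate replicate 2 more often than not, and markers of neutrophils and dendritic cells were not. Of 14 macrophage and monocyte markers listed, 12 were tested, and Itgam and Cd163 did not pass the filter on dim probes. Among the 12, 9 were lowest on benzyl acetate replicate 2 and 11 were below vehicle, or 6 of 12 without that array. Their mean deviation was 0.02, -0.31 and 0.10 with benzyl acetate, against -0.10, 0.01 and 0.28 with vehicle. Fcer1g, Tyrobp, Csf1r and Lyz2 were lowest on benzyl acetate replicate 2, and Mrc1 on benzyl acetate replicate 3.

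For T and NK cell markers, 12 of 14 were tested (Cd3e and Klrb1 did not pass the filter), and all 12 were below vehicle. Their median was -0.54, but -0.21 without vehicle replicate 3 and -0.82 without vehicle replicate 2. In limma 0 of the 12 passed the adjusted test, and 2 had an unadjusted p under 0.05, beside 6.74% of all genes. They were Gzma, a granzyme, with a difference of -0.50, and the adhesion receptor Cd2, with -1.77. Cd2 was well above background on 3 of the 6 arrays, so it passed the filter through a single group. Its level was -6.04, -6.01 and -6.34 with benzyl acetate, against -4.50, -5.63 and -2.97 with vehicle. Lck, Ccl5 and Cd3d differed by -0.67, -0.58 and -0.48. Of the 12, 8 were lowest on benzyl acetate replicate 2.

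The highest array set those cell markers apart from the 9 genes. The T and NK mean deviation was -0.27, -0.43 and -0.29 with benzyl acetate, against 0.06, -0.14 and 1.065 with vehicle, so vehicle replicate 3 was high, an array on which the 9 genes averaged -0.19. No macrophage or T and NK marker was highest on vehicle replicate 1. Of 4 B cell markers tested, 3 were lowest on benzyl acetate replicate 2, among them Cd22, whereas Pax5 was not. The mean deviation of the 4 there was -0.82. Cd22 was well above background on 4 of the 6 arrays, and 2 of the 4 markers on all 6. For those 2 the median group difference was 0.08, against -0.44 for the 4.

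Of 4 neutrophil markers tested, 1, Ncf1, was lowest on benzyl acetate replicate 2. Their mean deviation was -0.21, -0.0020 and -0.09 with benzyl acetate, against -0.15, 0.19 and 0.26 with vehicle. S100a8 and S100a9 were highest there among the benzyl acetate rats. Of 4 dendritic cell markers tested, 1, Clec9a, was lowest on that array, and the mean deviation was 0.01, -0.16 and -0.20 with benzyl acetate, against -0.13, -0.0043 and 0.49 with vehicle.

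Proximal tubule markers averaged 0.02, 0.01 and -0.06 with benzyl acetate, against -0.02, -0.0043 and 0.05 with vehicle, and 1 of 11 was lowest on benzyl acetate replicate 2. Of 7 endothelial and 6 podocyte markers tested, 0 were lowest there. In RNA from whole cortex, fewer cells of a type and less RNA per cell cannot be told apart, and the part of leukocyte content in the pattern of the 9 genes was not tested.

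**Figure D5:**
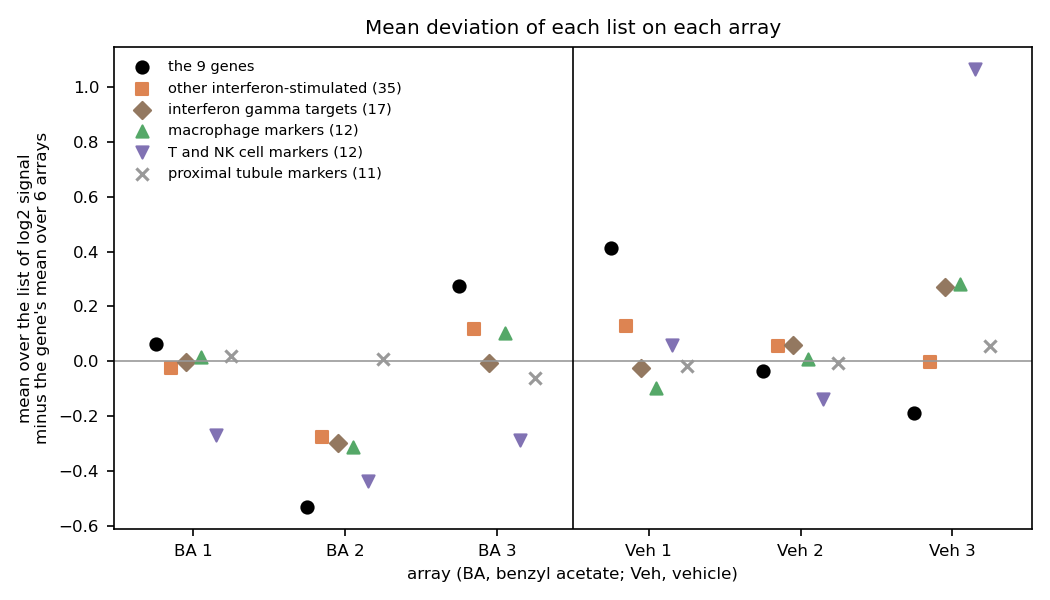
Mean deviation from each gene's own average (vertical axis, log2 units) on each array (horizontal axis; BA, benzyl acetate; Veh, vehicle) for the 9 genes and 5 other gene lists, with the number of tested genes in the legend. The 9 genes are lowest on benzyl acetate replicate 2 (-0.53) and highest on vehicle replicate 1 (0.41), and T and NK cell markers are highest on vehicle replicate 3.

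Benzyl acetate replicate 2 had the most spots marked as outliers by the scanner software. Among all non-control spots there were 13, 16 and 3 with benzyl acetate, against 1, 3 and 1 with vehicle, and 0 of them were on member probes. On 2 other quality values that array lay within the range of the other arrays. Its share of probes well above background was 69.8%, against 69.0% and 69.4% on the other benzyl acetate arrays. The log2 gap between the 3′ and 5′ probes of Gapdh, a sign of RNA integrity, was 2.37, 2.42 and 2.62 with benzyl acetate, against 2.38, 2.44 and 2.40 with vehicle, highest on benzyl acetate replicate 3.

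The genes whose pattern was most like the mean of the 9 were looked for among 1661 genes with a symbol, detection on all 6 arrays and an SD of at least 0.3. The 10 of highest Pearson's r over the 6 arrays were Tmem144 (0.93), Ttll1 (0.93), Oas1i (0.92), Cimap1a (0.92), S100b (0.89), Oas1k (0.89), Kcnk2 (0.89), Apol9a (0.88), Sdhaf1 (0.88) and Nfe2 (0.88). With 6 arrays and that many candidates such values describe likeness only. Oas1i and Oas1k are paralogs of Oas1a. Oas1i stood at -2.67, -3.05 and -1.98 with benzyl acetate, against -1.82, -2.35 and -2.91 with vehicle. Apol9a, an apolipoprotein L gene, stood at -1.70, -2.03 and -1.44 with benzyl acetate, against -1.23, -1.40 and -1.95 with vehicle. In both the low array was benzyl acetate replicate 2 and the high array vehicle replicate 1.

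Of these 10 genes 7 had a promoter in the table, and 2 of the 7, Oas1i and Apol9a, held the letters searched. Oas1i is printed to be set beside Oas1a above, since both hold 2 overlapping matches close to the start, at -36 and -30 in Oas1i, in capitals.
Oas1i (chr12:41285026-41285225, plus strand): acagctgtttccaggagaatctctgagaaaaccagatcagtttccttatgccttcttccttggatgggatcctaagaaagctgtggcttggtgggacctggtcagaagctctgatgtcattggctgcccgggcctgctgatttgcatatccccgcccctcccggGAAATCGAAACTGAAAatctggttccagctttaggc
The wider lists were counted by gene, over the listed genes with a promoter, tested or not. The letters stood in 21 of 35 other interferon-stimulated genes and 14 of 20 interferon gamma and antigen processing genes. For macrophage markers the count was 1 of 10, and for proximal tubule markers 0 of 10. These 35 are not the same set as the 35 tested genes, and the 3.41% above counts promoters, not genes.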

How the data were processed

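Each array's deposited table gives spot intensity, on a linear scale and with the local background subtracted by the scanner software, per the file headers. That software was Agilent Feature Extraction 10.7 according to the submitters' processing notes. The other deposited columns used are the software's flags (score 0 or 1) marking saturation, outliers and signal well above background, per the file headers. The authors' value table, also intensity, matched the processed signal divided by each array's 75th percentile (SD of the log2 ratio 0.00586 or less). It is therefore linear, with genes not centred, and its column medians were 0.1148, 0.1118 and 0.1125 for benzyl acetate and 0.1102, 0.111 and 0.111 for vehicle. It was used as an alternative.

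The processed signal was taken to log2 and the 75th percentile of 61537 non-control probes was subtracted on each array. Outlier spots were left out, and 0 spots were saturated. Levels are relative, so a change common to most RNAs cannot show. Probes entered when well above background on all 3 arrays of a group (42355 probes). Accessions were matched without version to RefSeq names of GRCr8: 28206 probes matched and 33331 did not. Probe coordinates are not given, because the grid file belongs to an older rat build. The probe of highest mean signal stood for each gene, giving 31179 genes, 12276 with a symbol. Limma 3.58.1 in R 4.3.3 (lmFit, eBayes) compared 3 arrays with 3, with Benjamini-Hochberg adjustment over all genes and a threshold of 0.05, and was tested on simulated data.

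Members and lists were chosen with earlier results of these data known. Genes were named by a rule: the 9 members, any gene of the ligand, JAK-STAT, regulatory factor and sensor lists, for each other list the 3 genes of lowest p and 2 of highest signal, and the 10 genes most like the members. Endothelial, podocyte and dendritic cell markers and most proximal tubule markers the rule names are given by counts, and markers below the filter are named beside it. The values of some genes of these lists are not reported here. Ube2l6 and Trim25 are both tested genes of their list. Same-numbered rats are not stated to be paired, and their deviations correlated at -0.108, 0.00753 and 0.000952. Alternatives covered blocks, background, normalization, filters, probe choice, array weights and arrays left out; normexp used the median spot signal.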

Additional observations from a re-analysis of the deposited data

How the results depend on the processing

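Under 22 alternatives, 0 of the 9 members passed the adjusted test in limma. Of all genes, 2 passed with normexp and an offset of 50, and 0 to 4 when 1 array was left out (4 without benzyl acetate replicate 3, 2 without benzyl acetate replicate 1), against 0 with all arrays. The members' median difference ran from -0.39 to 0.07 when 1 array was left out, and was 0.28 without benzyl acetate replicate 2 and vehicle replicate 1 together, a setting chosen after seeing the data; the count of members lowest on benzyl acetate replicate 2 was 5 to 7 in the alternatives that kept all arrays. With the replicate number as a block the median was -0.16, and that block changed no call. Members below vehicle were 7 with all arrays, 2 to 8 with 1 array left out and 3 with the slide as a block, which removes vehicle replicate 1 from the comparison because it is alone on its slide.

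Signs turned as follows; the cause was not tested. With the slide as a block, Mx1 was 0.0354, Mx2 0.0317, Isg15 0.0269 and Oas1a 0.0723. Mx2 was 0.0187 with normexp and 0.0105 with array weights, and Rsad2 was -0.00955 on its detected probe of lowest signal. Without benzyl acetate replicate 2 and vehicle replicate 1, Mx1 was 0.263, Irf7 0.0883, Isg15 0.380, Oas1a 0.280, Ifit3 0.0847 and Usp18 0.288. Over that setting and those that left out 1 array, Mx1 ran from -0.304 to 0.263, Mx2 from -0.104 to 0.0627, Isg15 from -0.549 to 0.380, Oas1a from -0.432 to 0.280, Ifit3 from -0.466 to 0.0847, Usp18 from -0.574 to 0.288, Irf7 from -0.807 to 0.0883, Ifi27 from -0.0350 to 0.663 and Rsad2 from -0.0999 to 0.543. With 3 rats a group, 6 of 9 members had a 95% interval within a 2-fold change, against 91.5% of all genes.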
